A study of Mus musculus with 6 samples.

Results

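Cholesterol synthesis and its control by the sterol regulatory element-binding proteins (SREBPs) were followed through 28 genes, chosen by name for their roles: the enzymes from acetoacetyl-CoA to cholesterol, the SREBPs with their escort and retention proteins, and genes of sterol transport and storage. A probe was assigned to a gene where it carried that gene's symbol alone. By this rule 26 of the 28 genes were measured, on 46 of the 38467 probes, and all 26 were among the 27046 genes and unnamed probes tested. Acat2 and Soat1 were not analysed here.

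The samples were cultures of C3H10T1/2, an established mouse mesenchymal line that can turn into fat, muscle, bone or cartilage cells. Control cultures received DMSO, the solvent (vehicle, n = 3), and treated cultures received 1 µM dexamethasone, a man-made steroid that acts through the glucocorticoid receptor (n = 3); samples are labelled as 90 minutes, and all grew in medium with serum, a source of lipoprotein cholesterol. RNA of each culture, in Cy3, was hybridised on a 2-colour array against 1 pool in Cy5, made from DMSO, dexamethasone and myostatin cultures per the sample labels. The series description calls the cultures biological replicates; all come from 1 line, and their spread does not cover other mesenchymal cells.

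Cells make cholesterol from acetyl units through mevalonate, which yields the isoprenoid diphosphates, and then through squalene and lanosterol. The SREBPs are transcription factors that are made as membrane proteins of the endoplasmic reticulum; Scap carries them to the Golgi apparatus for release by proteolysis, and the Insig proteins hold Scap back when sterols are plentiful. Insig1 and most enzymes of the pathway are themselves SREBP targets, so in many cell types their transcripts move together with the sterol supply.

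The values are read as log2 ratios of sample over pool, so they compare arrays for 1 probe and say nothing of how abundant a transcript is, or whether a marker is absent. The labels do not say which way the ratio was taken. Sample over pool is likely, since 5 of 6 textbook glucocorticoid targets had ratios above all vehicle arrays: Dusp1 by 4.26 ± 0.18, Fkbp5 by 3.93 ± 0.35, Per1 by 2.21 ± 0.23, Tsc22d3 by 1.95 ± 0.34 and Sgk1 by 1.71 ± 0.54 (log2, SE), with Zbtb16 at -0.40 ± 1.01. These targets were taken from an earlier analysis of these data, so they are not an independent check of the direction. If the ratio ran pool over sample, "higher" and "lower" would change places throughout. The arrays were unlike each other: vehicle 3, dexamethasone 2 and dexamethasone 3 had column medians of 0.16, 0.57 and 0.41, against -0.10 to -0.12 on the others, and 7.73% to 12.7% of their values, against 1.86% to 3.79%, equalled to 3 decimals the log2 ratio of whole numbers up to 10. A probe with such a value, a missing value or a size above 10 on any array is called low-signal here; 41 of the 46 probes of these genes were not. Spearman correlations over all probes ran from -0.33 (vehicle 2 with dexamethasone 3) to 0.57, and vehicle 1 correlated more with dexamethasone 1 (0.52) than with vehicle 3 (0.073). For this reason differences as deposited are set beside those with the array medians subtracted (centred), which brought the median difference over all genes from 0.32 to 0.018. The arrays are therefore also taken in sets that follow these correlations and not the labels: vehicle 1, vehicle 2 and dexamethasone 1, and vehicle 3, dexamethasone 2 and dexamethasone 3. In RNA from whole cultures, fewer cells of a type and less RNA per cell cannot be told apart.

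Several enzymes from squalene to cholesterol and the SREBP regulator Insig1 gave lower ratios with dexamethasone. Those at an unadjusted limma p under 0.05 were Sqle (1.81-fold), Cyp51 (1.72-fold), Dhcr7 (1.63-fold), Hsd17b7 (1.59-fold), Msmo1 (1.46-fold) and Insig1 (1.41-fold lower than vehicle), while Srebf1, Srebf2 and Scap had differences of 0.069, 0.17 and 0.25 as deposited. None passed the test: limma called 0 of the 26 at a Benjamini-Hochberg adjusted p under 0.05, where it called 0% of all genes tested, and the smallest adjusted p was 0.589, for Cyp51. At an unadjusted limma p under 0.05, 6 of the 26 were lower and 0 higher, against 0.995% of all genes lower (269) and 4.43% higher (1199). In 9 of the 26 all dexamethasone values lay below all vehicle values, against 6.42% of all genes, and in 1 all lay above, against 10.4%.

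The median difference over the 26 was -0.23 as deposited, beside 0.32 over all genes, and -0.54 after centring, beside 0.018. A difference below 0 was seen in 17 of the 26 as deposited, against 31.8% of all genes, and in 25 after centring, against 49.2%. After centring 6 were lower at an unadjusted p under 0.05 (1.03% of all genes) and 0 higher (2.91%), and 11 lay wholly below vehicle (3.82%) and 0 wholly above (6.43%). The count of 6 lower genes as deposited changed with the array left out. Without vehicle 1, 2 and 3 in turn it was 2 (0.73% of all genes), 1 (0.533%) and 1 (0.373%). Without dexamethasone 1, 2 and 3 in turn it was 6 (4.07%), 7 (1.3%) and 5 (0.871%). Without dexamethasone 2, 1 member, Nsdhl, was higher at that level. Without low-signal probes 25 of the genes kept a probe, and Pmvk did not. Limma again called 0 of them, where 0.169% of all genes were called; 7 were lower (2.56%) and 1 higher (4.9%) at an unadjusted p under 0.05, 9 lay wholly below vehicle (9.33%), 1 wholly above (10.4%), and 17 had a difference below 0 (36.9%). With centring as well, limma called 0 (0.0583% of all genes), 10 were lower (2.64%) and 1 higher (3.94%) at an unadjusted p under 0.05, 14 lay wholly below vehicle (8.66%), 0 wholly above (8.48%), and 21 were below 0 (47.4%). By the count of genes wholly below vehicle, the share of all genes was thus larger where low-signal probes were left out. With 1 array left out, the count of genes wholly below vehicle ran from 9 to 12. It could not fall below the 9 as deposited, since groups that lie apart stay apart when an array is dropped. These counts thus show no stability, and the share of all genes is not given for them.

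**Figure D1:**
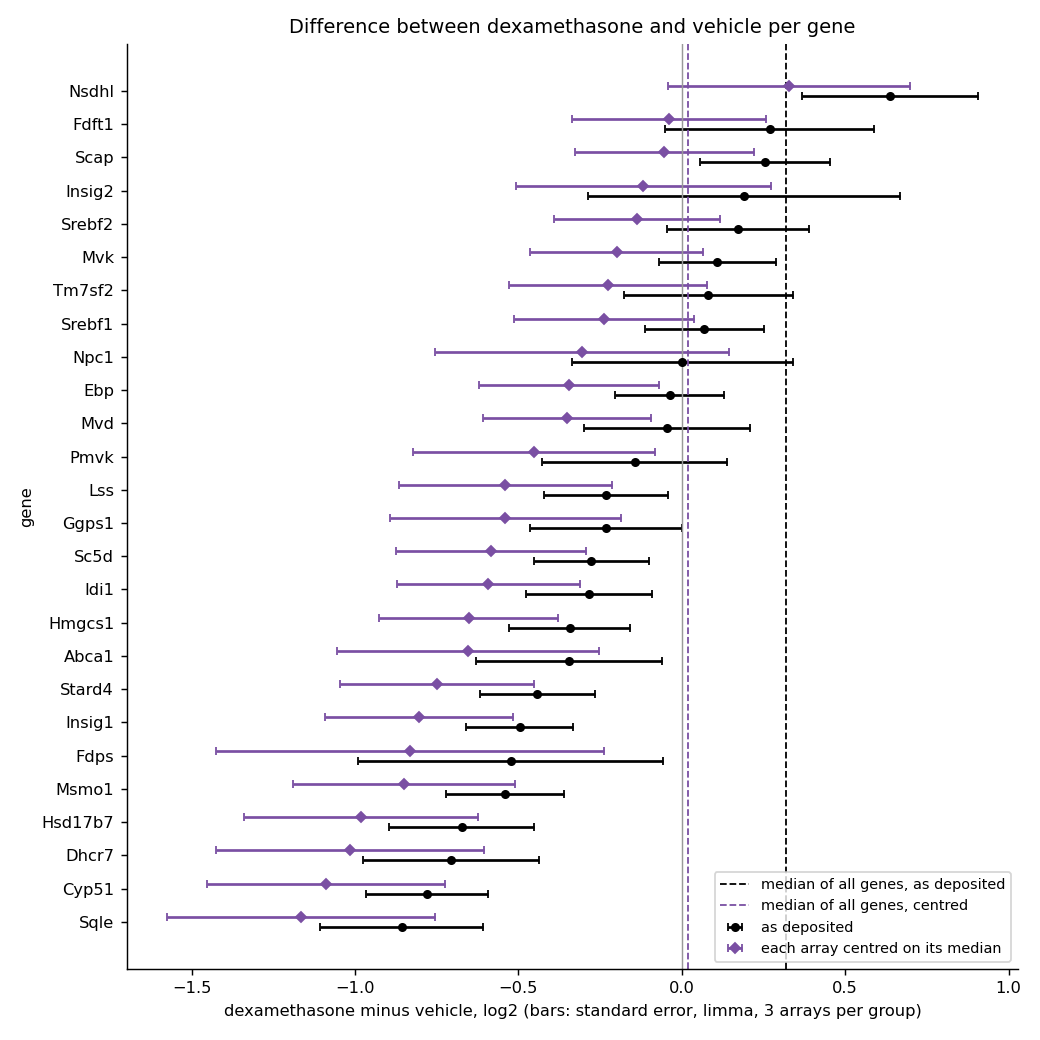
Dexamethasone minus vehicle for each of the 26 genes (log2, horizontal axis; circles, as deposited; diamonds, after centring each array; bars, limma standard error, 3 arrays per group), with dashed lines at the medians of all genes tested (0.32 and 0.018). Sqle, Cyp51, Dhcr7, Hsd17b7, Msmo1 and Insig1 lie to the left by either scale, and Nsdhl lies farthest to the right.

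The branch from squalene to cholesterol held 5 of the 6 genes at an unadjusted p under 0.05. Sqle, squalene epoxidase, which puts oxygen on squalene and is a rate-limiting step, had log2 ratios of 0.17, 0.30 and 0.30 on vehicle arrays 1, 2 and 3 and -0.25, -0.565 and -0.99 on dexamethasone arrays 1, 2 and 3. All dexamethasone values were below all vehicle values, with a wider spread among the dexamethasone arrays (SD 0.37 against 0.07). The difference was -0.86 ± 0.25 (SE; limma adjusted p = 0.732) and -1.16 after centring.

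Cyp51, the lanosterol demethylase, stood at 0.10, 0.27 and 0.19 with vehicle and at -0.39, -0.73 and -0.66 with dexamethasone, without overlap. Its difference was -0.78 ± 0.19 (SE; limma adjusted p = 0.589), and -1.09 after centring. It was the only member under an unadjusted 0.05 in all 16 other fits of gene values tried, its adjusted p ranging down to 0.0736 without dexamethasone 1. That fit leaves the dexamethasone group with only the 2 arrays that resemble vehicle 3.

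Msmo1, which removes methyl groups from the sterol ring after Cyp51, was at 0.37, 0.54 and 0.47 with vehicle and at -0.014, -0.26 and 0.026 with dexamethasone. The vehicle arrays were thus above the pool and the dexamethasone arrays near or below it, a difference of -0.54 ± 0.18 (SE; limma adjusted p = 0.732) that was -0.85 after centring. Hsd17b7, the keto-reductase of the same demethylation, gave 0.12, 0.18 and 0.215 against -0.32, -0.33 and -0.85. Here dexamethasone 3 lay lowest and the other dexamethasone arrays together, with a difference of -0.67 ± 0.22 (SE; limma adjusted p = 0.732), and -0.98 after centring.

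Dhcr7, which makes cholesterol in the last step of one of the branches, read 0.34, 0.27 and 0.52 with vehicle and 0.023, -0.24 and -0.775 with dexamethasone. The groups did not overlap, but the dexamethasone values spread over more than the distance between the group means (-0.71 ± 0.27, SE; limma adjusted p = 0.732; -1.01 after centring). Sc5d, the sterol desaturase that acts just before Dhcr7, gave 0.12, 0.24 and 0.26 against -0.11, 0.083 and -0.18. It lay wholly below vehicle with a smaller difference of -0.28 ± 0.18 (SE; limma adjusted p = 0.732), and -0.58 after centring.

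The other genes of this branch overlapped or went the other way. Lss, lanosterol synthase, differed by -0.23 ± 0.19 (SE), Ebp, the sterol isomerase, by -0.037 ± 0.17 (SE), Tm7sf2, a sterol reductase, by 0.082 ± 0.26 (SE) and Fdft1, squalene synthase, by 0.27 ± 0.32 (SE). After centring these were -0.54, -0.34, -0.23 and -0.039, so the sign of Tm7sf2 and Fdft1 depends on the scaling. Nsdhl, a dehydrogenase of the demethylation complex, was the only member wholly above vehicle, by 0.64 ± 0.27 (SE; limma adjusted p = 0.732), with 0.27, 0.16 and 0.86 against -0.31, 0.032 and -0.34. This rested on 1 of its 4 probes, mMR030314 (2.60); the others differed by -0.076, 0.13 and -0.11. After centring, Nsdhl overlapped and differed by 0.33 ± 0.37 (SE).

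**Figure D2:**
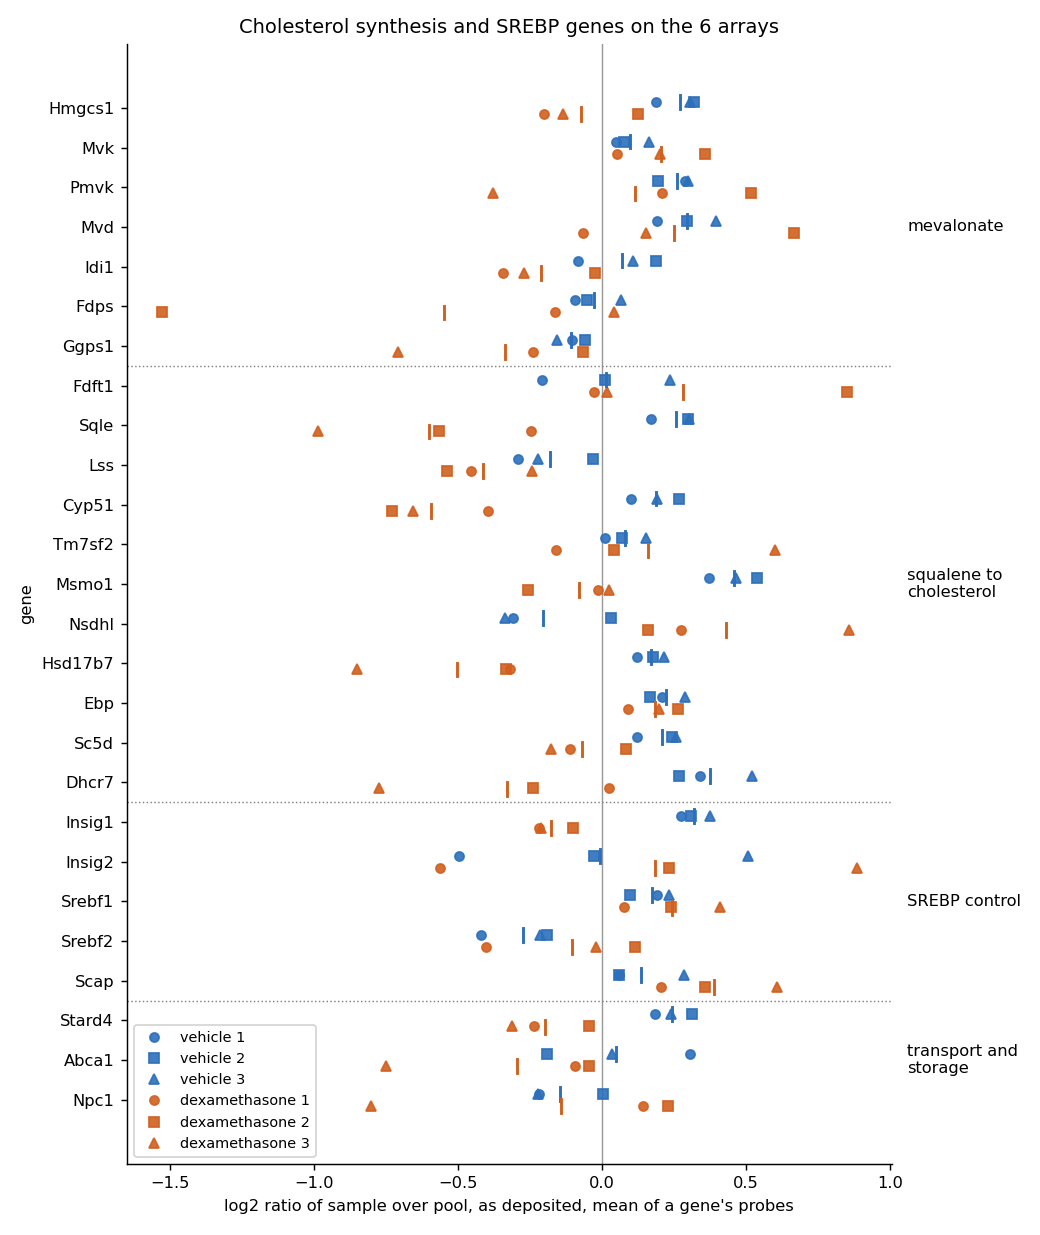
Log2 ratio of sample over pool, as deposited, for 26 genes in order of their roles (blue, vehicle; orange, dexamethasone; circle, square and triangle, replicates 1, 2 and 3; vertical ticks, group means). Vehicle and dexamethasone values lie apart, with dexamethasone lower, for Hmgcs1, Sqle, Cyp51, Msmo1, Hsd17b7, Sc5d, Dhcr7, Insig1 and Stard4, and with dexamethasone higher for Nsdhl.

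The mevalonate part of the pathway had 0 of 7 measured genes at an unadjusted limma p under 0.05, and 6 of 7 differences below 0. Hmgcs1, the synthase that makes HMG-CoA, gave 0.19, 0.32 and 0.31 with vehicle and -0.20, 0.12 and -0.14 with dexamethasone. It was the only one of the 7 without overlap as deposited, with a difference of -0.34 ± 0.18 (SE; limma adjusted p = 0.732), and -0.65 after centring. Idi1, which isomerises isopentenyl diphosphate, gave -0.082, 0.19 and 0.11 against -0.34, -0.025 and -0.27, so that vehicle 1 lay below dexamethasone 2. Its difference was -0.28 ± 0.19 (SE), and -0.59 after centring, where its groups came apart after centring, as did those of Mvd.

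Mvd, the decarboxylase that makes isopentenyl diphosphate, had ratios of 0.19, 0.295 and 0.40 against -0.067, 0.67 and 0.15, with dexamethasone 2 above all vehicle arrays, and differed by -0.044 ± 0.25 (SE) as deposited and -0.35 ± 0.26 (SE) after centring. The kinases Mvk and Pmvk differed by 0.11 ± 0.18 and -0.14 ± 0.28 (SE), and Ggps1, which makes geranylgeranyl diphosphate for protein prenylation, by -0.23 ± 0.23 (SE). After centring they were at -0.20, -0.45 and -0.54, so Mvk changed sign. Fdps, farnesyl diphosphate synthase, had a difference of -0.52 ± 0.47 (SE) that its 3 probes did not share: they gave 0.70, -2.06 and -0.21, and the probe at -2.06 stood at -5.06 on dexamethasone 2.

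Of the 5 regulators, Insig1 was the only one with a difference below 0 as deposited. Insig1, which retains the SREBP-Scap complex in the endoplasmic reticulum, gave 0.27, 0.31 and 0.38 with vehicle and -0.22, -0.10 and -0.21 with dexamethasone. The arrays of each group lay close together (SD 0.052 and 0.067), and the groups did not overlap. The difference was -0.50 ± 0.16 (SE; limma adjusted p = 0.732), and -0.80 after centring.

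Insig2, its paralogue with the same retention role, gave -0.50, -0.029 and 0.51 against -0.56, 0.23 and 0.89. The values overlapped throughout, with a difference of 0.19 ± 0.48 (SE), and -0.12 ± 0.39 (SE) after centring; the probe mMA033071 ran from -2.49 to 4.17 over the 6 arrays, and the other 3 probes differed by -0.64, -0.34 and -0.077. Srebf1, which encodes the SREBP forms that favour fatty acid synthesis, gave 0.19, 0.097 and 0.23 against 0.078, 0.24 and 0.41. Its groups overlapped (0.069 ± 0.18 as deposited, -0.24 ± 0.28 after centring, SE).

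Srebf2, the SREBP of cholesterol synthesis, gave -0.42, -0.19 and -0.22 against -0.40, 0.11 and -0.022, overlapping at dexamethasone 1 (0.17 ± 0.22 as deposited, -0.14 ± 0.25 after centring, SE). Scap, the escort of both SREBPs, gave 0.06, 0.06 and 0.285 against 0.21, 0.36 and 0.61, with vehicle 3 above dexamethasone 1 (0.25 ± 0.20 as deposited, -0.053 ± 0.27 after centring, SE). The sign of all 4 therefore turned with the scaling, and that of Insig1 did not. Whether Insig1 differed from Insig2 was not tested.

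Of the transport and storage genes, Stard4, a carrier that moves cholesterol between membranes and is an SREBP target, gave 0.18, 0.31 and 0.24 with vehicle and -0.24, -0.0455 and -0.31 with dexamethasone. The groups lay apart, with a difference of -0.44 ± 0.18 (SE; limma adjusted p = 0.732), and -0.75 after centring. Abca1, the exporter of cholesterol to apolipoproteins, ranged from -0.19 to 0.31 with vehicle and from -0.75 to -0.044 with dexamethasone, an overlap with a difference of -0.35 ± 0.29 (SE), and -0.65 after centring. Npc1, which releases cholesterol from lysosomes, differed by 0.0023 ± 0.34 (SE) as deposited and by -0.31 ± 0.45 (SE) after centring.

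Genes with several probes give repeat readings of the same RNA, which are not replicates. All 3 probes of Insig1 lay wholly below vehicle (-0.47, -0.46 and -0.56), and so did both probes of Cyp51 (-1.04 and -0.52), of Sqle (-0.90 and -0.81) and of Stard4 (-0.51 and -0.37). In Sc5d and Lss 1 probe of 2 did: the differences were -0.48 and -0.071 for Sc5d, and -0.26 and -0.21 for Lss. Of the 41 member probes without a low-signal value, 16 lay wholly below vehicle, against 10.2% of all 23112 such probes, and 1 wholly above, against 10.7%.

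**Figure D3:**
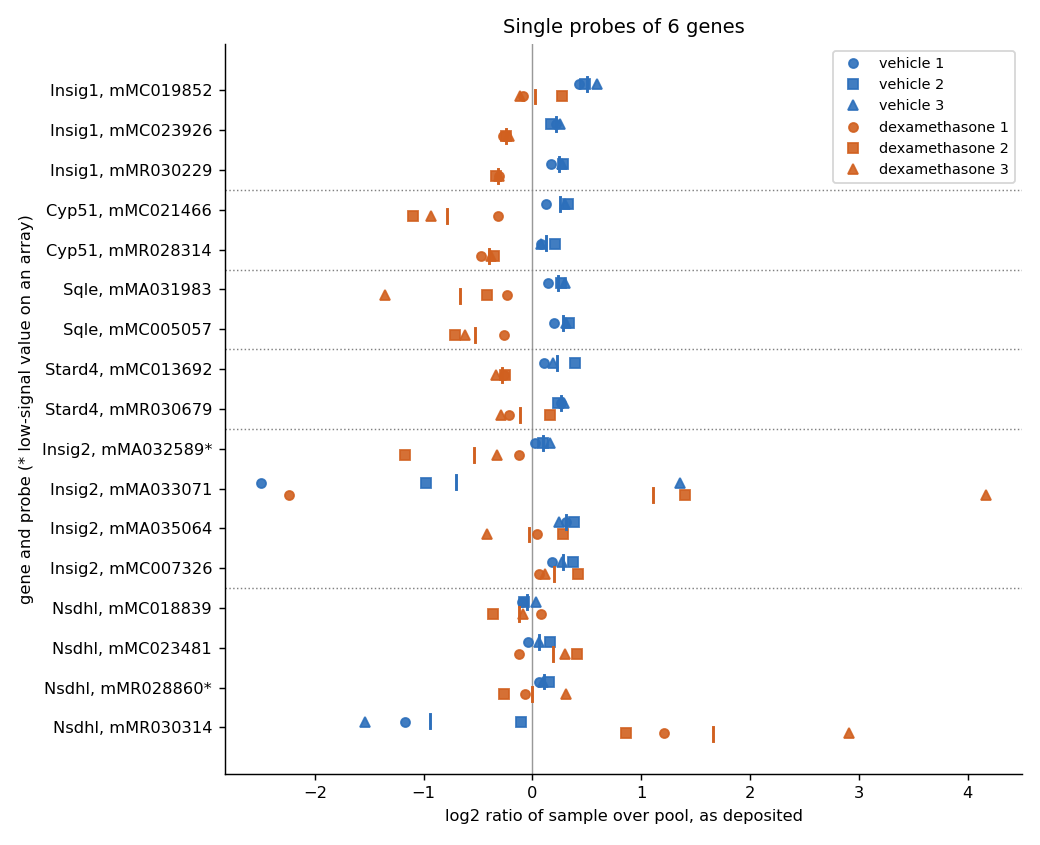
Log2 ratio of sample over pool, as deposited, for each probe of Insig1, Cyp51, Sqle, Stard4, Insig2 and Nsdhl on the 6 arrays (symbols as in the plot of genes by array; an asterisk marks a probe with a low-signal value on at least 1 array). The probes of the first 4 genes read alike, with dexamethasone below vehicle, and mMA033071 of Insig2 and mMR030314 of Nsdhl stand apart from the other probes of their genes.

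Most of the lower ratios were present in both sets of arrays, each of which holds 1 array of one group and so gives values with no test. In the first set (dexamethasone 1 against vehicle 1 and 2) the median difference over the 26 genes was -0.24, beside -0.052 over all genes. In the second set (dexamethasone 2 and 3 against vehicle 3) it was -0.23, beside 0.25. A value below 0 in both sets was seen in 16 of the 26, against 23.1% of all genes tested. For the 9 genes wholly below vehicle this sign was fixed in advance, since each dexamethasone value lay below each vehicle value. The genes named next are among them, so only the sizes in the sets add something for these. Insig1 was nearly equal in the sets (-0.51 and -0.53), as were Stard4 (-0.48 and -0.42) and Msmo1 (-0.47 and -0.58), whereas Sqle (-0.48 and -1.08) and Dhcr7 (-0.28 and -1.03) were farther from 0 in the second. That near-equality holds as deposited only: after centring the values were -0.50 and -0.86 for Insig1, -0.48 and -0.75 for Stard4, and -0.46 and -0.92 for Msmo1.

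In the first set 18.4% of all genes lay below Insig1, 16.7% below Cyp51 and 19.0% below Sqle, and without low-signal probes 10.8%, 9.39% and 11.4%. In the second set the shares were 15.7%, 9.36% and 7.26%, and without low-signal probes 12.8%, 5.76% and 3.78%. Of 7 mesenchymal markers, Col1a1 (-0.48 ± 0.24, SE), Vim (-0.67 ± 0.30, SE) and 4 others had differences below 0, and Thy1 was at 1.28 ± 0.57 (SE). As deposited 0 of them had an unadjusted limma p under 0.05, and after centring 2 were lower at that level. Their median was -0.46 (-0.13 in the first set, where 4 of 7 were below 0, and -0.58 in the second, where 6 were), and -0.77 after centring. Their part in the result was not tested. Markers of blood, endothelial and epithelial cells, 4 measured for each, had medians of 1.07, 1.25 and 1.16, and 1, 2 and 2 of them kept a probe that was not low-signal. In the first set these medians were -0.25, 0.089 and -0.12, and in the second 1.17, 1.35 and 1.75. For 4 markers of fat cells the median was 0.80 (-0.79 in the first set and 1.5 in the second), and for 2 of hepatocytes 0.51 (-0.48 and 0.43). Only 2 of the fat cell markers and neither hepatocyte marker kept a probe that was not low-signal. The medians of those 2 were 0.80 in the first set and 1.52 in the second. Fabp4, 1 of them, lay wholly above vehicle by 1.91 ± 0.18 (SE; limma adjusted p = 0.153, and 0.0401 without low-signal probes). Adipoq, Plin1 and Lep overlapped. Ratios to a pool do not show whether any of these was absent.

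**Figure D4:**
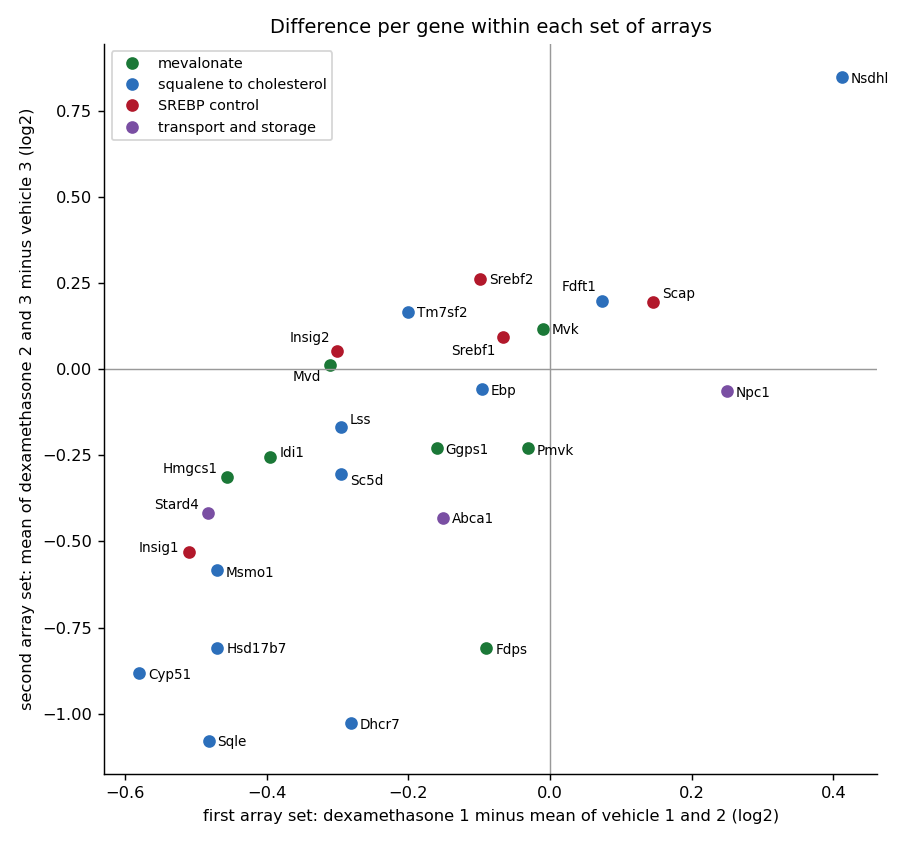
Difference between dexamethasone and vehicle (log2) within the first set of arrays (horizontal) and within the second (vertical), as deposited, for the 26 genes, coloured by role. Of the 26, 16 lie in the lower left part of the plot, among them Insig1 at -0.51 and -0.53, and Nsdhl, Fdft1 and Scap are above 0 in both sets.

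Promoters of some of the genes that lay wholly below vehicle are shown because SREBPs act at the promoter. They act there with the factors NF-Y, which binds the CCAAT box, and Sp1, which binds the GC box. Dhcr7 and Sc5d also lay wholly below vehicle, and their promoters were searched but are not printed. RefSeq promoters (GRCm38.p6) of 23 of the 28 genes were used, and the 250 bases before each start site were searched on both strands. Fdps, Fdft1, Sqle, Stard4 and Npc1 were left out of this search, so the counts do not cover them. Sqle and Stard4 are among the genes wholly below vehicle, and whether their promoters hold these elements was not tested. Each stretch is printed 5′ to 3′ on the gene's strand, with CCAAT boxes (CCAAT or its complement ATTGG) and the sterol regulatory element in capitals. They are Insig1 (chr5:28071162-28071411, plus strand), Cyp51 (chr5:4104698-4104947, minus), Hsd17b7 (chr1:169969206-169969455, minus), Msmo1 (chr8:64733579-64733828, minus) and Hmgcs1 (chr13:119690101-119690350, plus).
Insig1: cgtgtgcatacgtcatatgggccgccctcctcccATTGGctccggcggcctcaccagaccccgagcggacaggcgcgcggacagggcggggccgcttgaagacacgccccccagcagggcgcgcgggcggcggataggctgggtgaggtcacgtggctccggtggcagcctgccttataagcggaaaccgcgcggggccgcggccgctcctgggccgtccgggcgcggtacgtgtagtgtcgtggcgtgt
Cyp51: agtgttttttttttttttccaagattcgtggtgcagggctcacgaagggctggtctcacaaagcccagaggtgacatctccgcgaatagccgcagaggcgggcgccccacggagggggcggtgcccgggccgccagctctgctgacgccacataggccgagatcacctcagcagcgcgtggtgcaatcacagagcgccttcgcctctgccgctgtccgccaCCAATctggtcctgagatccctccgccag
Hsd17b7: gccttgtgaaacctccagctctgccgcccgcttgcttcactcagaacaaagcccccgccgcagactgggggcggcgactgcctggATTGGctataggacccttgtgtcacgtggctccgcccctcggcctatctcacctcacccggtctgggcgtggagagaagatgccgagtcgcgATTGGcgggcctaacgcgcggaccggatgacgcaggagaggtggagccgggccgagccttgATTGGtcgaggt
Msmo1: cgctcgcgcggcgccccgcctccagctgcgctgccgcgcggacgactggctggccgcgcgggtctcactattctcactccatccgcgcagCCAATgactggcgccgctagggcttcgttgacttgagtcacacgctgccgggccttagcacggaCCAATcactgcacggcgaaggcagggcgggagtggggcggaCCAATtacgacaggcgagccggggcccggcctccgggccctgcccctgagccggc
Hmgcs1: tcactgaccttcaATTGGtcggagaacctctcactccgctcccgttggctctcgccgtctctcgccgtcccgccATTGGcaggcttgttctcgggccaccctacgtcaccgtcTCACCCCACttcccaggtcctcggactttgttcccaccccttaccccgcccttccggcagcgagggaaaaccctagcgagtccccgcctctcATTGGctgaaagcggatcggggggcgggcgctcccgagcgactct

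The CCAAT box stood at least once before 20 of the 23 genes (87%), against 37.5% of all 27025 genes with a promoter, where a gene counts once however many promoters it has. By promoter it was 21 of 31, against 33.8% of all 32851. Before Hsd17b7, Msmo1 and Hmgcs1 there were 3 each, and before Insig1 and Cyp51 there was 1. The GC box, GGGCGG, stood before 20 of the 23 genes, against 35.4% of all genes (32.7% of promoters). The sterol regulatory element, searched as TCACNCCAC, was found only before Hmgcs1, at -137 from the start site, against 1.22% of all genes (1.05% of promoters). The glucocorticoid response element, in its palindromic form, was in 0 of the 23, against 0.44% of all genes (0.387% of promoters). Boxes were found both before genes with lower ratios (Cyp51, Msmo1) and before genes without them (Mvk, Nsdhl, Srebf2), and a match in letters is not a bound site. Each element was searched in 1 form over 250 bases, so a missing match does not show that the element is missing.

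Other genes around the pathway were counted from lists of which 54 genes were measured, and limma called 0 of them (0% of all genes tested). Of 10 genes of SREBP processing and sterol-regulated degradation, 7 were below 0 and 0 had an unadjusted p under 0.05, with a median of -0.074. After centring all 10 were below 0 (median -0.38), and Sec23a was lower at an unadjusted p under 0.05. The coat proteins that carry the SREBP-Scap complex out of the endoplasmic reticulum were the lowest: Sar1a differed by -0.69 ± 0.28 (SE; limma adjusted p = 0.732) and Sec23a by -1.04 ± 0.52 (SE; limma adjusted p = 0.732), neither passing, and Ubxn8, which takes part in degradation at the same membrane, by -0.29 ± 0.18 (SE). Centred, they were at -0.99, -1.35 and -0.59.

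Of 15 fatty acid genes driven by SREBP-1, 7 were below 0 and 8 above, with a median of 0.0072. Gpam, an acyltransferase of glycerolipid synthesis, was the only one under an unadjusted 0.05 (-1.81 ± 0.48, SE; limma adjusted p = 0.693), and it differed by only -0.32 without low-signal probes. Fads1, a fatty acid desaturase, and Me1, malic enzyme, differed by -0.29 ± 0.17 and -0.73 ± 0.32 (SE). Centred, Gpam, Fads1 and Me1 were at -2.12, -0.60 and -1.04. Over the 15 genes, 10 were then below 0 and 5 above, with a median of -0.30, so the balance as deposited depends on the scaling.

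Of 14 genes of sterol uptake, transport and efflux, 5 were below 0 and 9 above (median 0.25), and 2 were higher at an unadjusted p under 0.05. After centring 9 were below 0 and 5 above (median -0.059), and 0 had an unadjusted limma p under 0.05. Stard5, a sterol-binding relative of Stard4, had ratios of -0.64 ± 0.07 with vehicle and 0.46 ± 0.15 with dexamethasone (SD, n = 3 each), a difference of 1.10 ± 0.18 (SE; limma adjusted p = 0.330), and 0.79 after centring. Stard4 and Stard5 thus had differences of opposite sign; that contrast was not tested. Vldlr, a lipoprotein receptor, differed by 0.88 ± 0.33 (SE; limma adjusted p = 0.732), and Nceh1, a cholesteryl ester hydrolase, by -0.76 ± 0.31 (SE; limma adjusted p = 0.732). Centred, they were at 0.58 and -1.06.

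Of 11 genes of prenylation, dolichol and ubiquinone synthesis, which use the isoprenoids of the pathway, 5 were below 0 and 6 above (median 0.092), with 0 at an unadjusted limma p under 0.05. The prenyltransferase subunits Fnta and Fntb differed by -0.38 ± 0.22 and 0.22 ± 0.19 (SE), and the protease Rce1 by 0.38 ± 0.29 (SE). After centring 8 of the 11 were below 0 (median -0.22), with Fnta at -0.69, Fntb at -0.084 and Rce1 at 0.069. Of 4 other sterol genes, 2 were below 0 and 2 above, 0 of them under 0.05. The oxysterol-activated receptor gene Nr1h3 differed by 1.23 ± 0.76 (SE), Acat1, a thiolase, by -0.031 ± 0.29 (SE) and Mylip, a ligase that degrades lipoprotein receptors, by -0.024 ± 0.23 (SE). After centring 3 of the 4 were below 0, with Nr1h3 at 0.92, Acat1 at -0.34 and Mylip at -0.33.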

How the data were processed

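For each of the 6 arrays the authors deposited 1 value per probe; the labels name limma among the processing tools, with no version, and the normalization is not given in the sources used here. Per the labels the sample is in Cy3 and the pool in Cy5. The deposited columns of vehicle 1 and 2 fit a log2 scale. The other deposited columns also hold values beyond 100 in size, too large for log2 ratios, so they were recorded as a score; their other values were read as log2 too. Missing values were 552 to 4290 of 38467 probes per array. Centring, scale and direction of the values are not stated by the authors.

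Probes with 1 gene symbol in the platform annotation were averaged per gene; probes without one were tested singly. Features with at least 2 values per group entered lmFit and eBayes in limma 3.58.1 (R 4.3.3), uncentred and with no block, with Benjamini-Hochberg adjustment over 27046; a feature missing on an array was fitted on the rest. Both groups have 3 arrays, whose number limits the precision; an exact permutation test of 3 against 3 cannot go below 0.1. Differences are dexamethasone minus vehicle. Alternatives were centring, quantile normalization, leaving out low-signal probes, other ways of using probes, missing values or weights, blocks, and leaving out each array.

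The members and lists were chosen with earlier results of these data known. By rule, values on every array are given for members at an unadjusted p under 0.05 or without overlap, as deposited or centred, and for the regulators; from each other list up to 3 genes with the smallest p are named.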

Additional observations from a re-analysis of the deposited data

How the results depend on the processing

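No member was called by limma under any of the 17 alternatives. Over all genes tested, the count of calls was 29 without low-signal probes (17152 tested), 10 with centring as well, 5 with only values on all 6 arrays, and 0 under each other alternative. The count of members at an unadjusted p under 0.05 in either direction was 6 as reported, against 5.43% of all genes. It was 11 without low-signal probes and with centring (6.57%), and 3 with the array set as a block (5.54%). With each probe on its own, 13 of 46 member probes were under 0.05, against 5.81% of all features. The 11 and the 13 each included 1 that was higher. Leaving out 1 array gave 1 to 8 members, against 2.63% to 29.2% of all genes. The ends of these ranges do not pair: the 8 came without dexamethasone 2 (4.63% of all genes). The 29.2% came without dexamethasone 1, where 6 of the 26 members were under 0.05. With the replicate number as a block the count was 1 (4.88%), and 0 genes were called. Deviations from the group mean correlated at 0.28, -0.17 and 0.35 for arrays with the same number, and at -0.46 to 0.33 for the others. The signs followed the array sets, and deviations within a group sum to 0. Whether the numbers pair the cultures cannot be told from these values. The median difference was -0.54 with centring and -0.72 with quantile normalization, and -0.30 to -0.15 leaving out 1 array. Of the 54 other pathway genes, 3 had an unadjusted p under 0.05 as reported, against 5.43% of all genes. With array weights the count was 5, against 8.55%. With each probe on its own, 11 probes of these genes were under 0.05, a count of probes and not of genes, against 5.81% of all features. Leaving out 1 array gave 2 to 10 genes. The count of 10 came without dexamethasone 1, where 29.2% of all genes were under 0.05.

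The differences that changed sign were all of genes whose groups overlapped. With centring Mvk was -0.20, Fdft1 -0.039, Tm7sf2 -0.23, Insig2 -0.12, Srebf1 -0.24, Srebf2 -0.14, Scap -0.053 and Npc1 -0.31. With quantile normalization Mvk was -0.23, Fdft1 -0.043, Tm7sf2 -0.38, Insig2 -0.37, Srebf1 -0.43, Scap -0.072 and Npc1 -0.050. Without low-signal probes Tm7sf2 was -0.023, and with centring as well Tm7sf2 was -0.15, Mvk -0.021, Srebf1 -0.061, Srebf2 -0.017 and Npc1 -0.13. With the array set as a block Tm7sf2 was -0.017 and Insig2 -0.12, with the median of probes Insig2 was -0.13, and with array weights Mvd was 0.065. Leaving out 1 array gave ranges of -0.34 to 0.10 for Pmvk, -0.25 to 0.12 for Mvd, -0.016 to 0.42 for Fdft1, -0.14 to 0.24 for Tm7sf2, -0.077 to 0.010 for Ebp, -0.16 to 0.57 for Insig2, -0.014 to 0.15 for Srebf1 and -0.18 to 0.33 for Npc1. Except for the changes of scale, which shift every gene, the cause was not tested.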
